A study of Mus musculus with 96 samples.

Results

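Cytosolic ribosomal protein genes were described across 61 single mouse embryonic stem cells. Members were the gene rows whose symbol starts with Rpl or Rps followed by a digit, together with Rpsa, Rplp0, Rplp1 and Rplp2, without processed pseudogenes named with -ps and without the S6 kinases. The rule found 92 members among 36205 gene rows, of which 54 carry a large-subunit name and 38 a small-subunit name. Of these, 86 are annotated as protein coding and the others as pseudogenes. Rps19bp1 entered by its name alone, since it encodes a protein that binds Rps19, and it was left out of the small-subunit sums. Fau and Rack1, which also give ribosomal proteins, fall outside the rule.

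All cells came from E14, an established wild-type mouse embryonic stem cell line with the background labelled C57BL/6, grown in medium with serum and leukaemia inhibitory factor (serum/LIF). Messenger RNA was parted from DNA of the same cell by G&T-seq, in a study of transcriptional and epigenetic differences between cells. Of the wells listed, 76 held serum/LIF cells, 16 held cells in 2i medium and 4 were empty. The 61 cells with values are all from serum/LIF and the other wells were not analysed here, so results are differences within 1 condition. Nothing in the labels names separate cultures, so p-values measure only the spread between these cells.

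Libraries held 2417702 to 6787261 counts, and the number of genes with a count was 5317 to 10032. Each of 10 embryonic stem cell markers had counts in some cells, and 4 had them in every cell. Pou5f1 ranged from 74.1 to 3029 CPM (counts scaled to a common library size). Fut9 was the least often detected, in 27 cells, and Sox2 had counts in 54. The summed level of the 10 markers was 671 to 15921 CPM. Of 8 fibroblast markers, Postn had no count in any cell, Col1a1 had counts in 7 cells, and the summed level ran from 0 to 213 CPM. In 7 cells chromosome 14 took 2.45% of counts or less, against at least 2.72% in the other cells.

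The cytosolic ribosome joins a small subunit, which reads the messenger RNA, to a large subunit, which forms the peptide bond and passes the growing chain through an exit tunnel. Nearly every ribosomal protein is present in a single copy per ribosome, and their messages are among the most abundant in growing cells. Many of these messages begin with a run of pyrimidines (the 5′ terminal oligopyrimidine motif), through which mTOR signalling sets their translation. Embryonic stem cells divide fast, and their ribosome production is under Myc. Several ribosomal protein genes have paralogs used in particular tissues, and the autosomal copies Rpl10l and Rpl39l are known from mouse spermatogenesis, where X-linked Rpl10 and Rpl39 are silenced.

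The members took 2.70% of a cell's counts in the lowest cell (well B03), 4.49% at the median and 6.97% in the highest cell (well F06), with a mean of 4.61% ± 0.883 (SD, n = 61 cells). Large-subunit genes took 1.30% to 3.26% of counts (median 2.30%) and small-subunit genes 1.39% to 3.72% (median 2.21%). The same cells were lowest and highest for both subunits. The ratio of large-subunit to small-subunit counts ranged from 0.872 to 1.19 (median 1.03), a narrower range than that of the summed share, whose highest value was 2.58 times its lowest. Across cells the shares of both subunits had a Spearman rho of 0.924 (n = 61; both are shares of the same libraries).

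**Figure D1:**
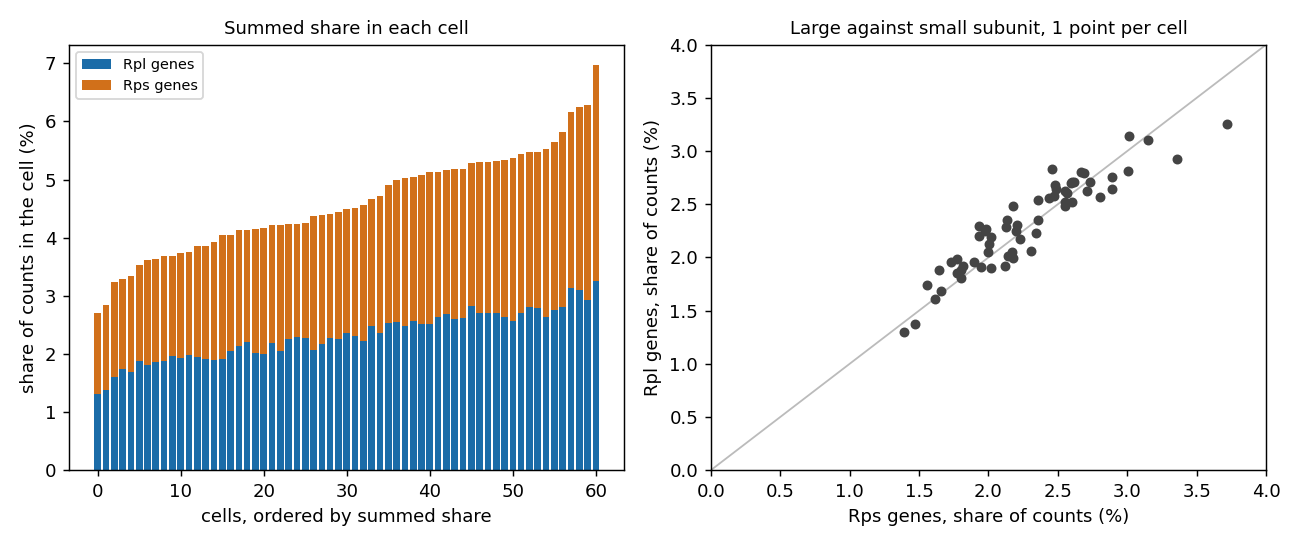
Left, share of each cell's counts (%) in large-subunit (Rpl) and small-subunit (Rps) genes, stacked, with 61 cells ordered by the sum, which runs from 2.70% to 6.97%. Right, the large-subunit share against the small-subunit share, 1 point per cell, with the line of equal shares; the cells follow that line (rho 0.924).

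The summed share was described against other properties of the same 61 cells. Its Spearman rho was -0.017 with total counts, -0.15 with genes detected, -0.073 with the mitochondrial share and -0.43 with the chromosome 14 share. It was 0.20 with the naive score and -0.082 with the G2/M score, both defined below, and 0.11 with a score over 42 S-phase genes. The strongest of these relations was with chromosome 14, and its part in the share was not tested. In the 7 cells of lowest chromosome 14 share, the members took 4.17% (well B05) to 5.65% (well E01) of counts. These values lie on both sides of the median over all cells, 4.49%. Another 239 rows with -ps names held reads equal to 2.72% of the members' reads.

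Levels per length ranged widely; they are given as TPM, computed here from the counts and the annotated transcript lengths. Rps14, a small-subunit protein, was among the most abundant, with a mean of 5651 ± 1493 TPM (SD, n = 61 cells), 2927 in the lowest cell, 5333 at the median and 10768 in the highest. Rps4x, the X-linked form of Rps4, had a mean of 4698 TPM. Among large-subunit genes, Rplp1 had a mean of 4958 TPM; it encodes an acidic protein of the stalk that recruits translation factors. Rpl32 had 4540 TPM, Rpl8, a protein near the peptidyl transferase centre, 3980, Rpl4, which lines the exit tunnel, 3412, and Rpl26 had 3316. Rps27l, a paralog of Rps27 known as a p53 target, had 3863 TPM. The ranges of these members overlapped. Neighbours in the order of levels were not compared within cells, so that order was not tested.

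The lowest members that passed a filter of 10 counts in 10 or more cells were Rpl6l at a mean of 4.03 TPM, Rpl28 at 8.17, Rpl29 at 14.1, Rpl17 at 24.95 and Rpl23a at 26.5. Except for Rpl6l, annotated as a processed pseudogene, these encode large-subunit proteins. In all, 32 members had a mean of 1000 TPM or more and 82 had counts in every cell. Rpl3l, known as the striated muscle paralog of Rpl3, had counts in 1 cell (9.39 CPM), and Rps12l1 in 26 cells at no more than 0.919 CPM; both failed the filter.

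Sequence shared with other genes limits these levels. The share of 50-base windows of a member's transcript found in no other gene's transcripts had a median of 43.9% over the 92 members and ran from 0% to 100%. The median level was 85.2 TPM for 27 members below 25% unique windows, 568 TPM for 27 between 25% and 50%, 1077 TPM for 22 between 50% and 75%, and 469 TPM for 16 above 75%. Across the 92 members, mean TPM and the unique share had a Spearman rho of 0.28 with 50-base windows and 0.42 with 100-base windows. Rpl17 had 21.3% unique windows and shared windows with 51 other genes, Rpl29 had 33.4% and 84 genes, and Rpl23a had 14.3% and 29 genes. The levels of such members are uncertain, because the treatment of reads that match several genes is not given in the sources used here. Annotated length also matters: Rps15a and Rps20 were divided by 5130 and 3706 bases, since long transcripts are annotated for them.

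**Figure D2:**
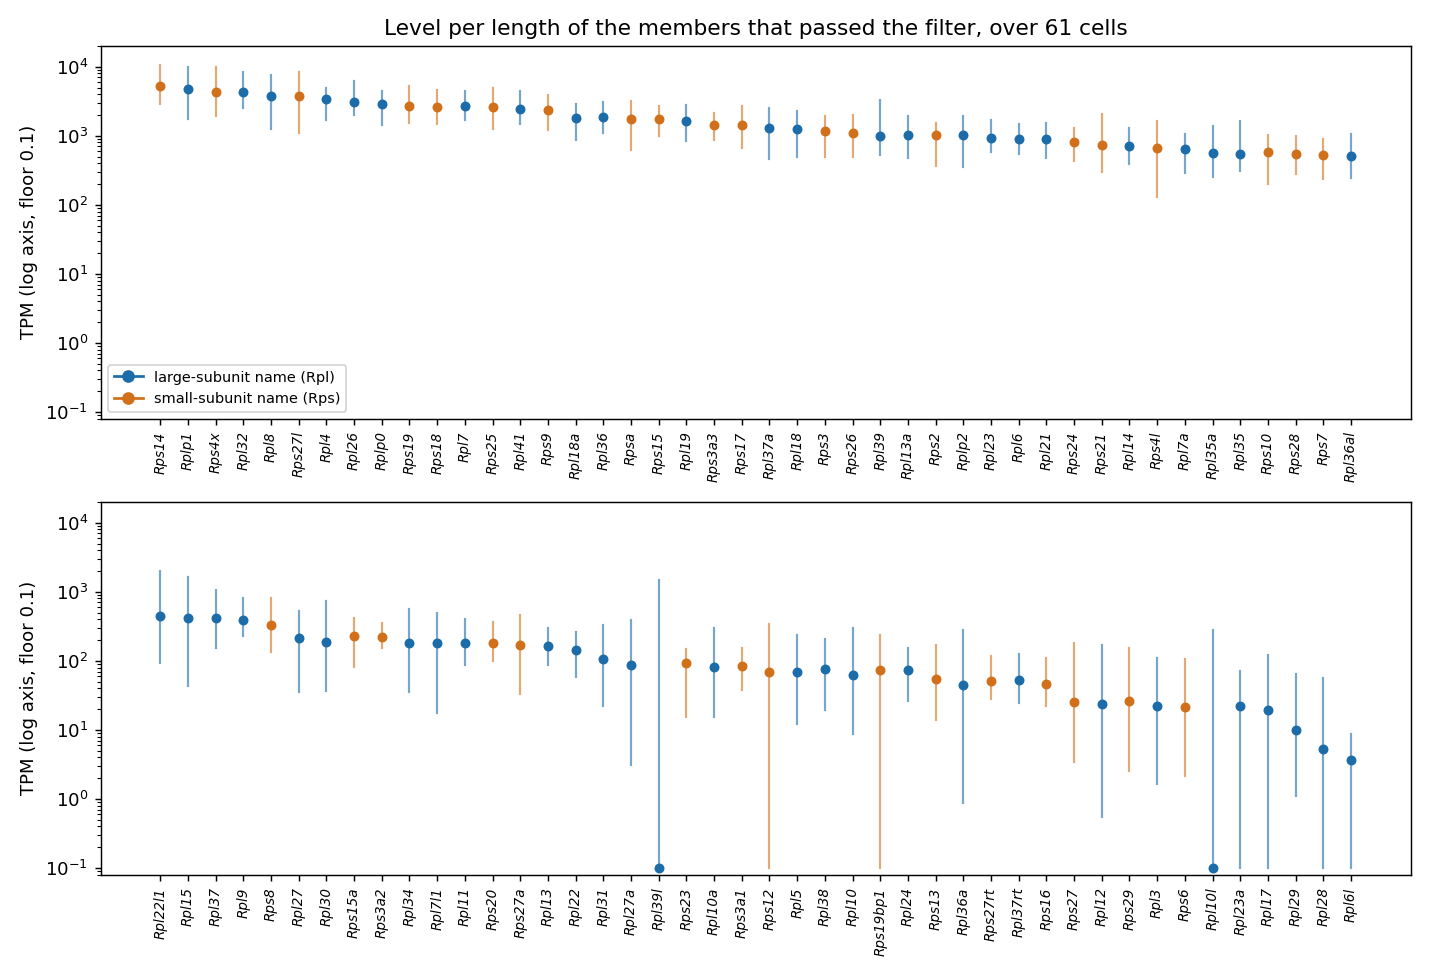
Level per length (TPM, log axis, values under 0.1 drawn at 0.1) of 88 of the 90 members that passed the filter, ordered by mean; points are medians and lines run from the lowest to the highest of 61 cells. Large-subunit names are blue and small-subunit names orange. Rpl39l and Rpl10l have medians of 0.

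Paralogs were set against the members they are named for, on the TPM scale. Rps27l had a median of 3765 TPM and Rps27 one of 25.5, and the lowest cell for Rps27l (1106 TPM) was above the highest for Rps27 (183 TPM). Unique 50-base windows made up 77.6% of Rps27l and 1.35% of Rps27. Against the p53 targets Cdkn1a, Mdm2 and Ccng1, Rps27l had a Spearman rho of 0.059, 0.23 and 0.34 over the 61 cells. These used log2 CPM with the share of genes detected regressed out (residual log2 CPM), and on CPM they were -0.0034, 0.22 and 0.24. Rpl22l1 had a median of 440 TPM and Rpl22 one of 144, both were detected in every cell, and their ranges overlapped. Rpl7l1 had a median of 184 TPM, against 2660 for Rpl7, with no overlap of the ranges. Rpl36al had 508 TPM and X-linked Rpl36a 44.1, of whose windows 14.5% were unique. Rpl6l had 3.70 TPM and Rpl6 had 906. Read sharing leaves the low values of Rps27, Rpl36a and Rpl6l uncertain.

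Rpl39l and Rpl10l stood apart from the other members that passed the filter by their absence from most cells. Rpl39l (chr16:10170226-10174911, plus strand, GRCm38, protein coding) had counts in 16 of 61 cells, and in 14 of these at least 10. Rpl10l (chr12:66283379-66284401, minus strand, GRCm38, protein coding) had counts in 23 cells, and in 19 of these at least 10. Where detected, Rpl39l had a median of 126 CPM and a highest value of 697 CPM (well F01), and Rpl10l a median of 34.4 CPM and a highest value of 171 CPM (well D05). In the 45 cells without Rpl39l and the 38 without Rpl10l, a count of 0 allows up to 3 counts, or 0.442 to 1.24 CPM by cell, for counting error only.

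The genes they resemble did not share that pattern. Rpl39, an exit tunnel protein, had counts in every cell, with 170 CPM in the lowest, 345 at the median and 1081 in the highest. Rpl10, which joins the large subunit late in its assembly, had 3.79 CPM in the lowest cell, 28.8 at the median and 126 in the highest. Spearman rho of residual log2 CPM over the 61 cells was -0.10 between Rpl39l and Rpl39 and -0.016 between Rpl10l and Rpl10. On CPM these values were 0.046 and -0.0051. Rpl39l and Rpl10l had a rho of 0.75 with each other on log2 CPM with the share of genes detected regressed out, and of 0.69 on CPM. Both had counts in 14 cells and neither had in 36. In those 36 cells the residuals of each gene follow only the share of genes detected, so that share enters the rho of 0.75. All 50-base windows of Rpl39l, 83.5% of those of Rpl39 and 92.4% of those of Rpl10l were unique, but only 7.87% of those of Rpl10, which shares windows with 15 genes, so the level of Rpl10 and its rho with Rpl10l are uncertain.

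The position of a cell between naive and more advanced pluripotency was given by a naive score, taken as the mean z-score (from log2(CPM + 1)) of the 16 measured genes of a list of 20 that includes Nanog, Zfp42, Esrrb, Klf4 and Tfcp2l1. The score, scaled to an SD of 1, ran from -1.05 to 2.57, with a gap from 1.17 to 1.78 that left 9 cells above it and 52 below. Slopes on the score, in log2 units per SD, were tested by edgeR (quasi-likelihood), with the share of genes detected in a cell as covariate and Benjamini-Hochberg adjustment over all 10852 genes tested. A slope passed at an adjusted p under 0.05.

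On the naive score 3 of the 90 members passed, all with positive slopes. Rpl39l rose most of them, by 3.28 ± 0.61 log2 units per SD (SE; adjusted p = 0.000715), and Rpl10l rose by 1.97 ± 0.53 (adjusted p = 0.0179). Rpl39l passed the filter on low counts through high-scoring cells. Of its 14 cells with 10 or more counts, 12 were the 12 of highest score. Its slope thus describes a member kept by the cells in which it is high. Those 12 cells were also among the 19 with 10 or more counts of Rpl10l, and without them Rpl10l would miss the filter. Within the cells below the gap Rpl10l still passed the filter. Rpl13a, a large-subunit protein also known for translational control of inflammatory messages, rose by 0.17 ± 0.05 (adjusted p = 0.0429), and it had 250 CPM in the lowest cell, 602 at the median and 1132 in the highest. The call of Rpl13a held in 5 of 14 alternatives and was lost with limma (adjusted p = 0.0526), with the G2/M score as a further covariate (0.0552) and with the members left out of the library sizes (0.0655). Its slope was 0.043 in the cells below the gap, 0.20 in plate rows A to D and 0.084 in rows E to H. Among all genes tested 4.97% passed, 0.94% with positive and 4.03% with negative slopes. The 3 calls among 90 members are near that background in number. Their shared direction is no further result, since Rpl39l and Rpl10l passed the filter through high-scoring cells. The median slope was 0.037 over the members, of which 63 were positive, and -0.049 over all genes tested. The count of positive slopes was 60 with DESeq2 size factors, 57 with the members left out of the library sizes, and 43 of 88 in plate rows E to H.

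**Figure D3:**
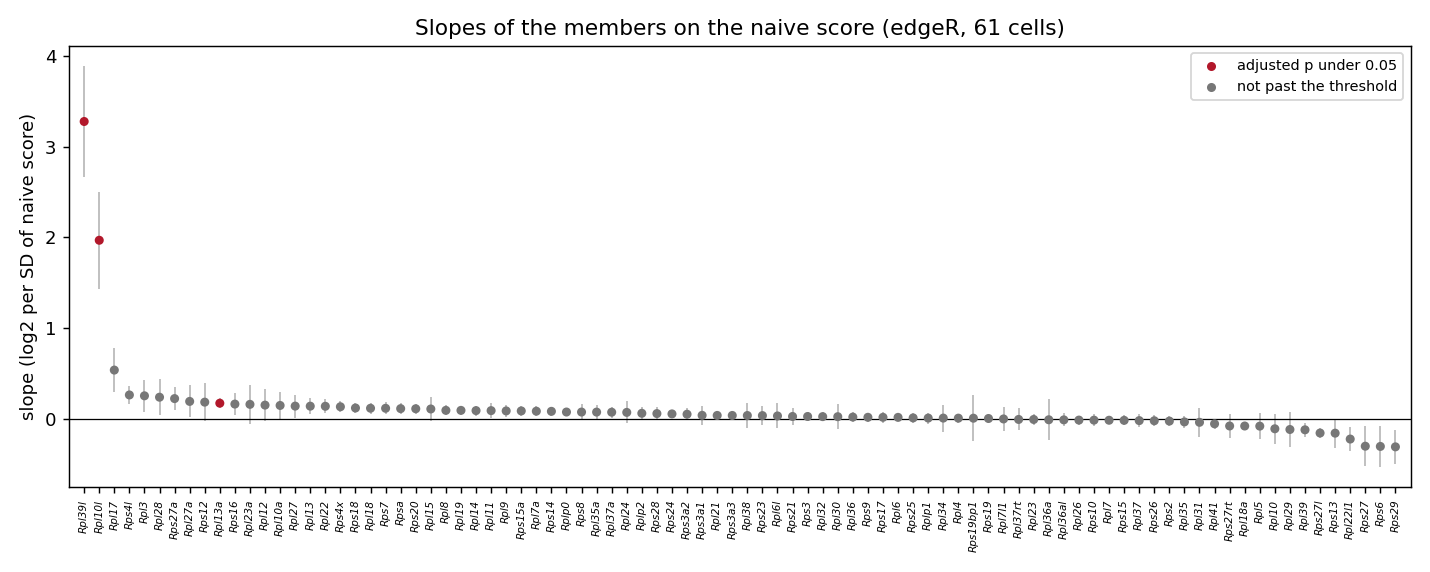
Slope on the naive score (log2 units per SD) of 88 of the 90 members tested over 61 cells, ordered from highest to lowest, with bars of 1 SE; red points passed an adjusted p under 0.05. Rpl39l (3.28) and Rpl10l (1.97) lie above all others; Rpl13a is the other red point (0.17).

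Detection of both genes went with the score, while their levels did not follow its order. All 9 cells above the gap had counts of both genes, with 67.3 to 278 CPM of Rpl39l and 30.97 to 171 CPM of Rpl10l. The next 3 cells by score, in wells B10, F07 and F01, had 498, 96.5 and 697 CPM of Rpl39l and 2.67, 24.5 and 78.0 CPM of Rpl10l. The highest Rpl39l levels were thus in cells ranked 12 and 10 by score, against 82.6 CPM in the top-ranked cell (well D05). Among the lower-scoring cells, Rpl39l had 103 CPM in well B07 and 19.2 CPM in well A05, and 1 or 2 counts in another 2 cells. Rpl10l had 84.7 CPM in well D06, 50.6 in H02, 48.9 in B07, 36.7 in E09, 19.99 in B04, 12.8 in A06 and 3.57 in D09, and 1 to 3 counts in another 4 cells. Its first 4 of these values lie within the range of the cells above the gap. Of the 52 cells below the gap, 7 had Rpl39l counts and 14 had Rpl10l counts. Of the 12 highest-scoring cells, 6 had fewer genes detected (5317 to 7441) than the first quartile over all cells, 8012, among them the wells B10 and F01 with the highest Rpl39l. The share of genes detected is a covariate of the slopes; without it the slope of Rpl39l was 4.10 and that of Rpl10l 2.00, and both passed.

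Chromosome 14 moved with this pattern. The 7 cells of lowest chromosome 14 share all had counts of Rpl39l and of Rpl10l. Of these cells 5 lie above the gap, and the rest, in wells F07 and F01, rank 11 and 12 by score. All 7 are thus among the 12 highest-scoring cells, and 9 other cells had Rpl39l. Neither gene lies on that chromosome. Without these 7 cells, an alternative chosen after seeing the data, the slope of Rpl39l was 3.12 ± 0.62 (adjusted p = 0.00605) and that of Rpl10l 2.53 ± 0.70 (adjusted p = 0.0747, edgeR), so Rpl10l no longer passed. This fit kept the genes that passed the filter on low counts over all cells. All 7 cells left out had 10 or more counts of Rpl39l, and by the remaining cells alone Rpl39l would have failed that filter. Its pass there thus depends on the cells left out and does not show that the slope holds without them. Rpl13a had a slope of 0.19 ± 0.05 without the 7 cells (adjusted p = 0.0723), no smaller than with them, and 66 genes in all passed, against 539. Within the 52 cells below the gap Rpl39l failed the filter on low counts and Rpl10l had a slope of 3.02 (adjusted p = 0.655).

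**Figure D4:**
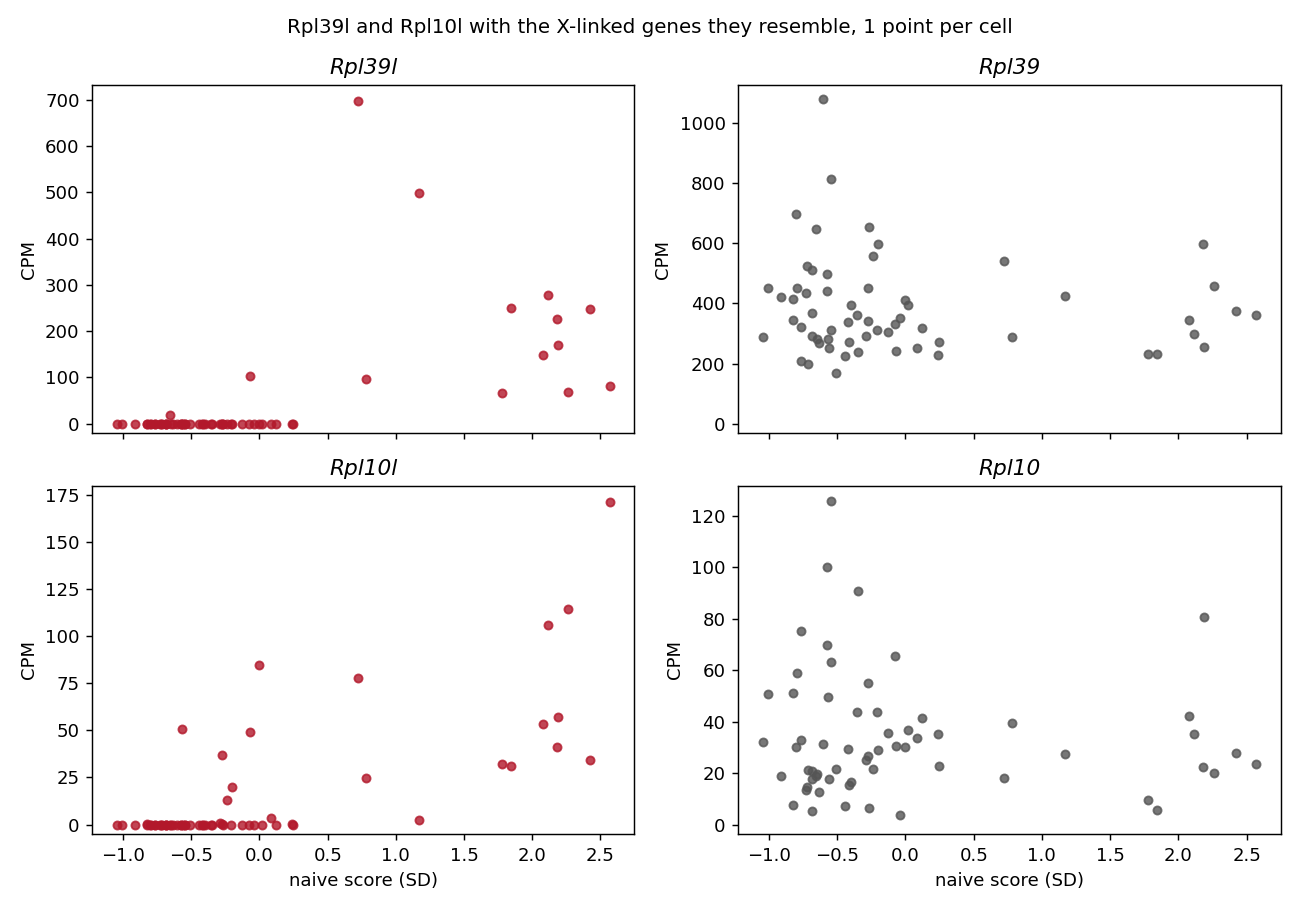
CPM of Rpl39l and Rpl10l (left) and of Rpl39 and Rpl10 (right) against the naive score (SD units), 1 point per cell, 61 cells. Rpl39l and Rpl10l have counts in all 12 highest-scoring cells and are at 0 in most others, while Rpl39 and Rpl10 have counts in every cell.

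The other members did not pass, and their slopes ran from -0.31 (Rps29) to 0.54 (Rpl17, adjusted p = 0.262). Next to the called members by p came Rps4l, annotated as a transcribed pseudogene, with 0.26 ± 0.10 (adjusted p = 0.119). Rps27l had a slope of -0.16 ± 0.06 (adjusted p = 0.137, edgeR), which passed by the DESeq2 Wald test (-0.17, adjusted p = 0.0159) and in plate rows A to D (-0.29, adjusted p = 0.0368). In plate rows E to H it was -0.019 (adjusted p = 0.999), and without the covariate -0.070 (adjusted p = 0.741). Rpl22l1 had -0.22 ± 0.13 and Rpl7l1 -0.001 ± 0.13. Rps14, among the most abundant members, had 0.083 ± 0.047. Altogether 9 members had an unadjusted p under 0.05, against 1607 of 10852 genes.

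The G2/M score, built the same way from 54 genes of late cell cycle, gave no call among the members by edgeR, DESeq2 or limma. Among all 10814 genes tested, 0.194% passed by edgeR, 0.157% with positive and 0.037% with negative slopes. Unadjusted p was under 0.05 for 3 members, among them Rpl39l (2.99 ± 0.95, adjusted p = 0.310) and Rpl7l1 (0.33 ± 0.13, adjusted p = 0.685). The median slope was 0.0085 over the members and 0.0091 over all genes, with 53 of 90 members positive, a count that fell to 29 with DESeq2 size factors.

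Variation between cells was described by the ratio of the squared coefficient of variation (CV2) to the trend fitted over all genes at the same mean. The ratio had a median of 0.278 over the 90 members and 1.41 over all 10868 genes that passed the filter, and it was below 1 for 86 members and for 31.5% of all genes. Rpl39l had the highest ratio, 6.50, above 99.3% of all genes. It was followed by Rpl10l at 1.63, Rpl15 at 1.09, Rpl22l1 at 1.02 and Rpl7l1 at 0.935. Rpl15, a large-subunit gene on chromosome 14, ranged from 19.1 to 848 CPM with a median of 179, and 24.8% of its 50-base windows were unique. The lowest ratios were those of Rpl6l (0.0123), Rps27rt (0.0414) and Rpl37rt (0.0543), all at medians of 20.5 CPM or less and with sequence shared with 7 to 12 other genes. The part of shared reads in those values was not tested.

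Members varied together. Over 4005 pairs of the 90 members, the median Spearman rho across cells, on the same residual log2 CPM, was 0.27, and 92.7% of pairs were positive; over all genes that passed the filter the median was 0.010. For the 82 members with counts in every cell the median was 0.31, against 0.018 over the 1471 genes with counts in every cell. Pairs within the small subunit had a median of 0.33, pairs within the large subunit 0.23 and pairs across subunits 0.28. The proteasome, another large complex, had a median of 0.053 over 32 genes, and the mitochondrial ribosomal protein genes had 0.057 over 79. These pairs share cells and libraries, so no p is given. Abundant members correlated more at the median, which was 0.41 among 56 with a mean of at least 100 CPM and 0.17 among 34 below it. Over the 90 members, mean rho with the others and mean CPM had a Spearman rho of 0.49. Single members departed from this, as Rpl4, highest in mean CPM (2921), had a mean rho of 0.13.

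The stalk genes Rplp1 and Rplp2 had the highest mean rho with the other members, 0.45 and 0.44, followed by Rpl36 with 0.42 and by Rps18 and Rps21 with 0.41 each. Rplp2 and Rpl36 had a rho of 0.82 with each other. The lowest means were those of Rpl15 (0.022), Rpl27a (0.046), Rps6 (0.053), Rpl6l (0.056) and Rpl39l (0.059); Rps6 is the small-subunit protein phosphorylated by the S6 kinases. Rps3a2 and Rps3a3, both annotated as processed pseudogenes and named here after their values were seen, had a rho of 0.94, with 9.83% and 34.9% unique windows.

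**Figure D5:**
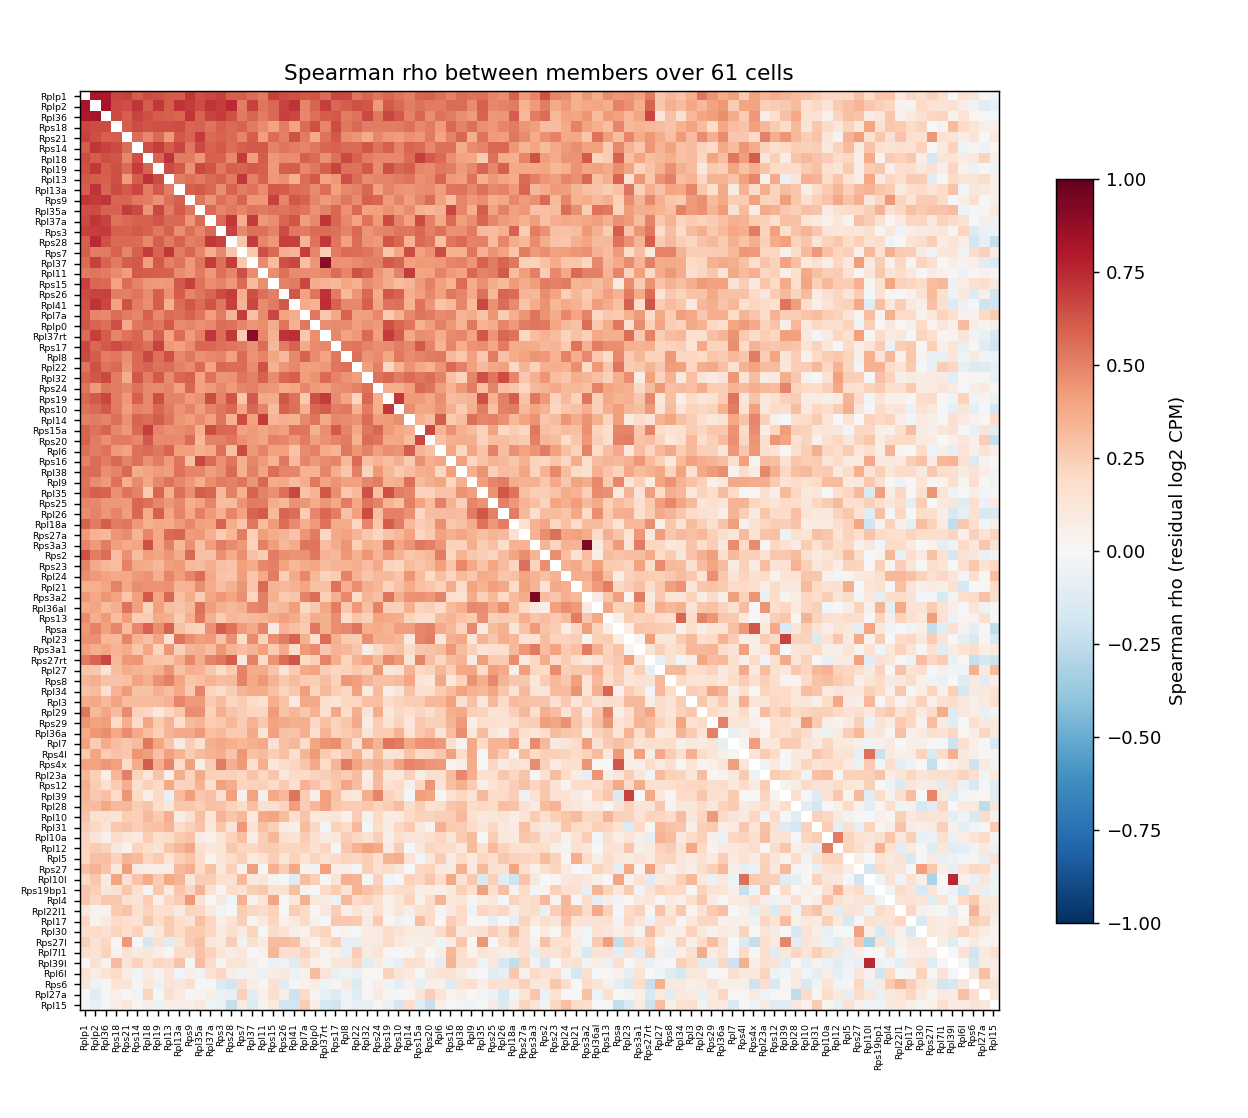
Spearman rho of residual log2 CPM between each pair of 88 of the 90 members over 61 cells, ordered by mean rho, from -1 (blue) to 1 (red), with the diagonal left white. The block of members with the highest mean rho at the upper left is positive, and Rpl15, Rpl27a, Rps6, Rpl6l and Rpl39l at the lower right have means of 0.059 or less.

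Among genes outside the rule, those most like the member sum were listed by Spearman rho of residual log2 CPM over 61 cells. Gm10073 came first with 0.83, and 8 of the first 10 share 50-base windows with a member, such as Gm10073 with Rplp1, Rpl18-ps2 with Rpl18 (0.77) and Gm8730 with Rplp0 (0.73). Of the 2 others, 1 has no symbol in the tables used, and whether it shares windows is not known here. The other is Mif (0.73), a cytokine also abundant in growing cells. Among genes that share no such window, Polr2f (0.62), Smarcd1 (0.60) and Gapdh (0.58) also stood high. Rack1 had 0.55 and Fau 0.45.

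Other genes of translation were described in the same way. The translation factors had a median rho of 0.12 with the member sum, with 26 of 38 positive, and all tested genes that are no members had -0.015. The highest were Eef1g at 0.52, Eif5a at 0.51, Eef1b2 at 0.46, Eef1a1 at 0.43 and Eef2 at 0.39, while Eef1d, another elongation factor, was at 0.12 and Eif3e at -0.37. Ribosome biogenesis genes had a median of 0.12 (46 of 58 positive) and mitochondrial ribosomal protein genes 0.12 (61 of 79), while Myc regulators had -0.025 and p53 targets -0.069. On the naive score, where 4.97% of all genes passed and 0.94% rose, 18 of 38 translation factors had positive slopes (median -0.0056) and 3 rose: Eif2s2 by 0.41 ± 0.10, Eif4a1 by 0.23 ± 0.07 and Eef1g by 0.18 ± 0.06 log2 units per SD (edgeR adjusted p = 0.00608, 0.0219 and 0.0492). Of 58 ribosome biogenesis genes 0 passed by edgeR, 7 had an unadjusted p under 0.05, and 1 passed by DESeq2 and 5 by limma. Over all 10852 genes, 1607 had an unadjusted p under 0.05 by edgeR, 995 passed by DESeq2 and 658 by limma. Of 79 mitochondrial ribosomal protein genes 1 passed by edgeR, Mrpl15 (0.61 ± 0.12, adjusted p = 0.00158). Of 32 proteasome genes 2 rose, Psmd4 and Psmb3, and 1 fell, Psma3.

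Start-site sequence was read for the 67 members with an entry in the RefSeq promoter table, which gives 250 bases before and 50 after each annotated start on GRCm38.p6. A pyrimidine run at the start was taken as C followed by at least 4 further C or T. It was present in 14 of 67 members (20.9%) and in 3.01% of the 27025 genes in the table. Only runs from the exact annotated base were counted, so a run some bases away was missed. The run stood in members at both ends of the ordering by mean rho: Rplp2, Rps18 and Rps21 were among the highest, and Rps6 and Rpl15 among the lowest. Their sequences, from 30 bases before the start to 20 after, are given 5′ to 3′ with the run in capitals.
Rplp2 (chr7:141447621-141447670, plus strand): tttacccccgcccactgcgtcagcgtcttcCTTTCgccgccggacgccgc
Rps18 (chr17:33955646-33955695, minus strand): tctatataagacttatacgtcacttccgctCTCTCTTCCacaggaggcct
Rps21 (chr2:180257349-180257398, plus strand): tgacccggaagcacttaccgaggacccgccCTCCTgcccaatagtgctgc
Rps6 (chr4:86857348-86857397, minus strand): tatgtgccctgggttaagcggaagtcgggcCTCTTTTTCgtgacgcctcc
Rpl15 (chr14:18270967-18271016, minus strand): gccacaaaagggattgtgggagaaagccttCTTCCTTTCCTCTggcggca

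Both strands of the 300-base window were also searched for 3 motifs, none of which contains another. The GABP motif CCGGAAG was in 38.8% of the 67 members, against 9.93% of all genes in the table, and the YY1 motif AAGATGGC in 8.96%, against 3.19%. The TATA motif TATAAA was in 10.4%, against 15.7%. The genes compared were not matched for CpG pairs, which the GABP motif contains. CpG pairs, the sites of DNA methylation, had a median of 21 per window over the members and 8 over all genes. Rpl39l, Rpl39 and Rpl10 had 17 each and Rpl10l had 13. None of these 4 had the pyrimidine run at the exact annotated start. The 140 bases from 120 before the start to 20 after are shown for these genes, since Rpl39l and Rpl10l carried the slopes on the naive score and methylation was measured in the same study, with CpG pairs in capitals.
Rpl39l (chr16:10170108-10170247, plus strand): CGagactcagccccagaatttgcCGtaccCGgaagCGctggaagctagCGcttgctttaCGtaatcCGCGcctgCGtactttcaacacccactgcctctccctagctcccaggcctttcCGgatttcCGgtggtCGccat
Rpl39 (chrX:37085203-37085342, minus strand): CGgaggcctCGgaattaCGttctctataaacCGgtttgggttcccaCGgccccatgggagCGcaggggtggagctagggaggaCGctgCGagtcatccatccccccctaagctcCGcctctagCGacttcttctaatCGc
Rpl10l (chr12:66284382-66284521, minus strand): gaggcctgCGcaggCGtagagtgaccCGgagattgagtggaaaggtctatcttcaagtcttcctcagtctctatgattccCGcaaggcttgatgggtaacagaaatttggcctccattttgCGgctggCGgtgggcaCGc
Rpl10 (chrX:74270696-74270835, plus strand): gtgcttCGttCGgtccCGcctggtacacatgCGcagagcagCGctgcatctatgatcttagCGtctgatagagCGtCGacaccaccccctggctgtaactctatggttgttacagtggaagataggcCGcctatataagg
These windows hold 12 CpG pairs in Rpl39l, 11 in Rpl39, 7 in Rpl10l and 9 in Rpl10. Methylation values were not used here.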

How the data were processed

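RNA of single E14 cells was measured in 61 serum/LIF wells. The tools named in the submitters' processing notes are GSNAP 2014-02-28, bedtools 2.19.1, SAMtools 0.1.18 and DESeq2, on GRCm38; counting rule, annotation release, strand and read length were not given in the sources used here. All results rest on the deposited raw counts, which are whole numbers per gene. CPM and TPM were computed here. The deposited normalized table was not used, since 1.65% of its non-zero values carry their own cell's factor (relative tolerance 0.0001). The labels name no molecular identifiers, so limits from counts cover counting error only.

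The ERCC rows held 14 reads in all and stayed out of library sizes. Symbols were found for 34880 of 36205 identifiers, and GENCODE M21 (GRCm38) gave lengths and coordinates. The length of a gene was the median over its best-annotated transcripts. Slopes used edgeR 4.0.16 with TMM scaling. Their SE is approximate: the size of the slope over the root of its F. DESeq2 1.42.0, limma 3.58.1 (prior count 1) and scran 1.30.0 (CV2 trend; its p-values were not used) ran in R 4.3.3. Promoters are from RefSeq. Genes of a score were not tested against it.

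The members, lists and tests were chosen with earlier results of these data known. Named genes were the paralogs by symbol, the 10 highest and 5 lowest levels, the members past a threshold, the 5 highest and 3 lowest CV2 ratios, the 5 highest and 5 lowest mean rho, and the 10 genes most like the member sum. Others were named after their values were seen. A few genes that the rule would name are not reported here, and the figures leave out 2 members.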

Additional observations from a re-analysis of the deposited data

How the results depend on the processing

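On the naive score 3 members passed. The count was 0 with the filter raised to 10 counts in 30 cells, which Rpl39l and Rpl10l fail (187 of all 6558 genes passed). It was 0 in the cells below the gap (0 of 10410 genes) and 0 in plate rows E to H (1 of 7877). These 2 settings thus show nothing particular to the members. The count was 1 in plate rows A to D (Rps27l, with 197 of 9071 genes) and 1 with the score over 5 genes (Rpl39l, with 126 of 10852). It was also 1 without the 7 cells of lowest chromosome 14 share (Rpl39l, with 66 of 10852). Rpl39l failed the filter below the gap, in rows A to D and in rows E to H. In the 10 alternatives where it was tested, its slope was 2.52 to 4.10 and passed each time (adjusted p up to 0.0165). Each of these kept the filter made over all cells or had no filter. They are thus no separate support for a member kept by the cells in which it is high. In the fit without the 7 cells, Rpl39l would have failed the filter by the remaining cells alone. Rpl10l kept its sign in all 12 alternatives that tested it and passed in 8; Rpl13a kept its sign in 14 and passed in 5 (adjusted p 0.0116 to 0.999). The slope of Rps27l turned to 0.023 below the gap. On the G2/M score no member passed, except 2 with no filter (Rpl39l and Rpl3l); there the slope of Rpl39l turned to -0.19 without the covariate. Calls over all genes ran from 0 to 4493 on the naive score, against 539, and from 0 to 3026 on the G2/M score, against 21, highest with no filter. Over the alternatives the median share was 4.31% to 4.66% (4.49% as reported), the median pairwise rho 0.267 to 0.311 (0.272) and the median CV2 ratio 0.244 to 0.284 (0.278). Alternatives that left out the members from library sizes or left out the 7 cells were chosen after seeing the data. No paired analysis was possible because values were analysed for 1 group only.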
